A study of Homo sapiens with 38 samples.

Results

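The Fanconi anaemia and homologous recombination genes were taken as a fixed list of 39 names, from the Fanconi core complex to the checkpoint kinases, and were read in each count table of a neuroblastoma series. All 39 were found, among 50652 genes listed in the BE2C tables and 50778 in the palbociclib tables, where MRE11A is listed as MRE11. RNA was sequenced from 27 libraries of 5 established cell lines, which the study uses as neuroblastoma lines. The labels give cell line as the source, although their extraction text speaks of xenograft tissue. In BE2C, KDM6B, an H3K27 demethylase, was targeted for 72 h with 3 siRNAs (siKDM6B N1, N2 and N33). The files of each siRNA were taken as 1 library, and the 3 libraries as 1 arm. The comparison was a control siRNA (siCtrl, 2 libraries). Other BE2C cells were given GSK-J4 at 2.5 µM for 0, 24 or 48 h (2 libraries each). Per the study, cells convert GSK-J4 to GSK-J1, which inhibits both KDM6A and KDM6B and had some effect on KDM5A. The labels name no untreated control at 24 or 48 h, so drug and time in culture cannot be told apart. In 4 other lines palbociclib, an inhibitor of CDK4 and CDK6, was given for 72 h and compared with control cells of the same line, with 2 libraries per arm. The dose was 300 nM in CHLA15 and CHLA20 and 3 µM in NB1643 and NB1691, so dose and line cannot be told apart. The labels give RPMI for BE2C and DMEM for the other lines, while the study's methods name RPMI for BE2C, CHLA15, CHLA20 and NB1691. The labels do not say whether replicates were separate cultures, and p-values then measure only the spread between these samples, which may be technical. In the siKDM6B arm that spread also holds differences between the 3 siRNAs, which are not replicates of each other.

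Interstrand crosslinks join both strands of DNA and block replication forks. The Fanconi core complex, with the ubiquitin-conjugating enzyme UBE2T, attaches ubiquitin to the FANCD2 and FANCI pair, which brings nucleases and the BRCA proteins to the lesion. The resulting break is resected, a recombinase filament is loaded by BRCA2 with PALB2, the sister chromatid is invaded, and the joint molecules are dissolved by BLM. Most of this repair takes place in S and G2 phase, and many of its genes are transcribed at the G1 to S transition by E2F factors, which the RB protein holds back until CDK4 and CDK6 phosphorylate it.

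Promoter letters are shown because the lines were treated with an inhibitor that acts upstream of RB and E2F. RefSeq windows (GRCh38.p14, 250 bases before to 50 after the start) were found for 35 of the 39 genes. Only the first window listed for a gene was read, which may not be at its main start, and other starts were not searched. An E2F element in 1 of 4 spellings (TTTGGCGC, TTTCCCGC, TTTGCCGC or TTTCGCGC, both strands) stood in 6 of the 35 windows (17.1%) and in 3.33% of 27305 promoters of the same length. The CHR element, TTTGAA or TTCGAA, which the MuvB complexes of the cell cycle bind, stood in 4 (11.4% against 16.6%). The CCAAT box, which NF-Y binds, stood in 15 (42.9% against 35.7%). None of the 42 matches overlapped another. A match is a description of letters, not a bound site. The 7 E2F matches are printed with 11 bases on each side, 5′ to 3′ on the gene's own strand, and capitals mark the element. The coding side of each start is to the right.
FANCA, a core complex subunit, element 172 bases before the start (chr16:89816801-89816830, minus strand): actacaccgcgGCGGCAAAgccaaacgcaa
FANCC, a core complex subunit, element 172 bases before the start (chr9:95317863-95317892, minus strand): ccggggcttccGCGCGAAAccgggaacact
FANCC, element 46 bases before the start (chr9:95317737-95317766, minus strand): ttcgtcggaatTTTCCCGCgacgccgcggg
FANCD2, the ubiquitin acceptor, element 2 bases before the start (chr3:10026424-10026453, plus strand): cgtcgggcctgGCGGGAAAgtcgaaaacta
XRCC2, a recombinase paralog, element 22 bases after the start (chr7:152676102-152676131, minus strand): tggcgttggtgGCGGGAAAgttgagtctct
MND1, a strand exchange factor, element 34 bases before the start (chr4:153344643-153344672, plus strand): cggcgtagtcgGCGCCAAAatcaaacgcgt
EXO1, a resection nuclease, element 5 bases after the start (chr1:241848197-241848226, plus strand): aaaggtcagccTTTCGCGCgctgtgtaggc

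The 250 bases before the start are printed for the 6 genes with the most matches of any kind (E2F matches breaking ties) among those whose changes are named by rule, so that the arrangement of elements can be read beside the changes given later. Capitals mark every match to the 3 elements.
XRCC3 (chr14:103715452-103715701, minus strand, 5 matches): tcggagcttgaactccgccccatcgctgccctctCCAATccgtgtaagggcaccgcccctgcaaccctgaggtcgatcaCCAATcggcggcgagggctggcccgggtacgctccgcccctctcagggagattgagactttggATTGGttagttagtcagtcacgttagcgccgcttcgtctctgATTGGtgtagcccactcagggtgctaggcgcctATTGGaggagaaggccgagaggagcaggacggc
BRIP1 (chr17:61863529-61863778, minus strand, 4 matches): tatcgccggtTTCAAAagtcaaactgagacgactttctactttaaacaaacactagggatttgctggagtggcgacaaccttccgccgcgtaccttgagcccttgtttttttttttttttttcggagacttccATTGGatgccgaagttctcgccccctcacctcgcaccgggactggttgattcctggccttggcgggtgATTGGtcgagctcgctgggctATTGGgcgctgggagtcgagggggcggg
BLM (chr15:90717096-90717345, plus strand, 3 matches): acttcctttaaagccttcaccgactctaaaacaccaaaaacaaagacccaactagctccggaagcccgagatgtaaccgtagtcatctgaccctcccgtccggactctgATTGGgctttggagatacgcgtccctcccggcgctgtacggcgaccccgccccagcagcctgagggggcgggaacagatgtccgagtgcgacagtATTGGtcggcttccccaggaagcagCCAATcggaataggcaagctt
CHEK2 (chr22:28741821-28742070, minus strand, 3 matches): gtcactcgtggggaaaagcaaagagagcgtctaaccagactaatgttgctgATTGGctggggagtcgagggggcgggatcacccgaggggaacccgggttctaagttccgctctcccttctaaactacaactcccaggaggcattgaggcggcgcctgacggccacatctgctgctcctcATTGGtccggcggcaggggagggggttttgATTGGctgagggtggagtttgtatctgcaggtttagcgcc
UBE2T (chr1:202341937-202342186, minus strand, 3 matches): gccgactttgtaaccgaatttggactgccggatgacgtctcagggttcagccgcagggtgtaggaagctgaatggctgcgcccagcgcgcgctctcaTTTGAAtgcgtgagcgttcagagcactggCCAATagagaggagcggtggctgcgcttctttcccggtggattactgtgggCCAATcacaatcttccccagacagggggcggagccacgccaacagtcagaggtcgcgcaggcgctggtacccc
FANCA (chr16:89816648-89816897, minus strand, 2 matches): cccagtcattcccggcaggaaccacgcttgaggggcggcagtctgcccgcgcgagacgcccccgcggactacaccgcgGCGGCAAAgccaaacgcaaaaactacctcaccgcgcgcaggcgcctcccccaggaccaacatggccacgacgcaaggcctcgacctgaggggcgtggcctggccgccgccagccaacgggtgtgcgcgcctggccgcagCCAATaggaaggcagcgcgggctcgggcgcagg

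Counts assigned to genes ranged from 36186567 to 93011010 per library, and 3 counts correspond to at most 0.0829 CPM, the count scaled to a library total of 1e+06. Intervals cover the fitted spread between libraries, and floors cover counting error only. All 39 genes passed the filter on low counts in each of the 3 fits, and the lowest count of any of them was 21 (MND1 in a palbociclib library of NB1691). The NB1691 libraries, control and treated, stood apart from the other lines. Their summed level of 10 sympathoadrenal markers, which define neuroblastoma cells, was 634 to 908 CPM, against 2593 to 3866 CPM in CHLA15, CHLA20 and NB1643, and 9 or 10 of the 10 were above 1 CPM. Their 7 mesenchymal markers summed to 78860 to 100500 CPM against 326 to 1455 CPM, their 5 epithelial markers to 349 to 627 CPM against 0.710 to 4.19 CPM, their 3 endothelial markers to 7.39 to 7.86 CPM against 0.077 to 2.51 CPM, and their 3 blood markers stayed at or below 0.896 CPM. Few genes carried these sums: FN1 (61800 to 78470 CPM) and COL1A1 (14560 to 19850 CPM) the mesenchymal sum, and KRT18 (297 to 567 CPM) the epithelial sum. Above 1 CPM in NB1691 were 5 to 7 of the 7 mesenchymal markers, against 4 to 6 in the other lines. Of the 5 epithelial markers 2 to 3 were, against 0 to 2. MYCN was at 86.1 to 106 CPM in NB1691, against 2166 to 3257 in NB1643 and 1.93 to 3.39 in CHLA15 and CHLA20. The NB1691 marker profile is thus far from that of the other lines, and the identity of the line was not tested. KDM6B itself stood at 6.47 and 8.76 CPM with siCtrl, 8.99 with N1, 7.11 with N2 and 8.26 with N33. The targeted transcript was therefore not lower in the libraries labelled siKDM6B (log2 fold change 0.092, edgeR adjusted p = 0.945). The study itself reports KDM6B knockdown by siRNA in BE2C with western blots. Those measure protein, so the RNA values here do not decide whether the protein was depleted. The N33 library stood apart from N1 and N2, with MYCN at 466 CPM against 1742 and 1736, and a sympathoadrenal sum of 968 CPM against 3167 and 2444, although all 10 markers were above 1 CPM in each BE2C library.

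**Figure D1:**
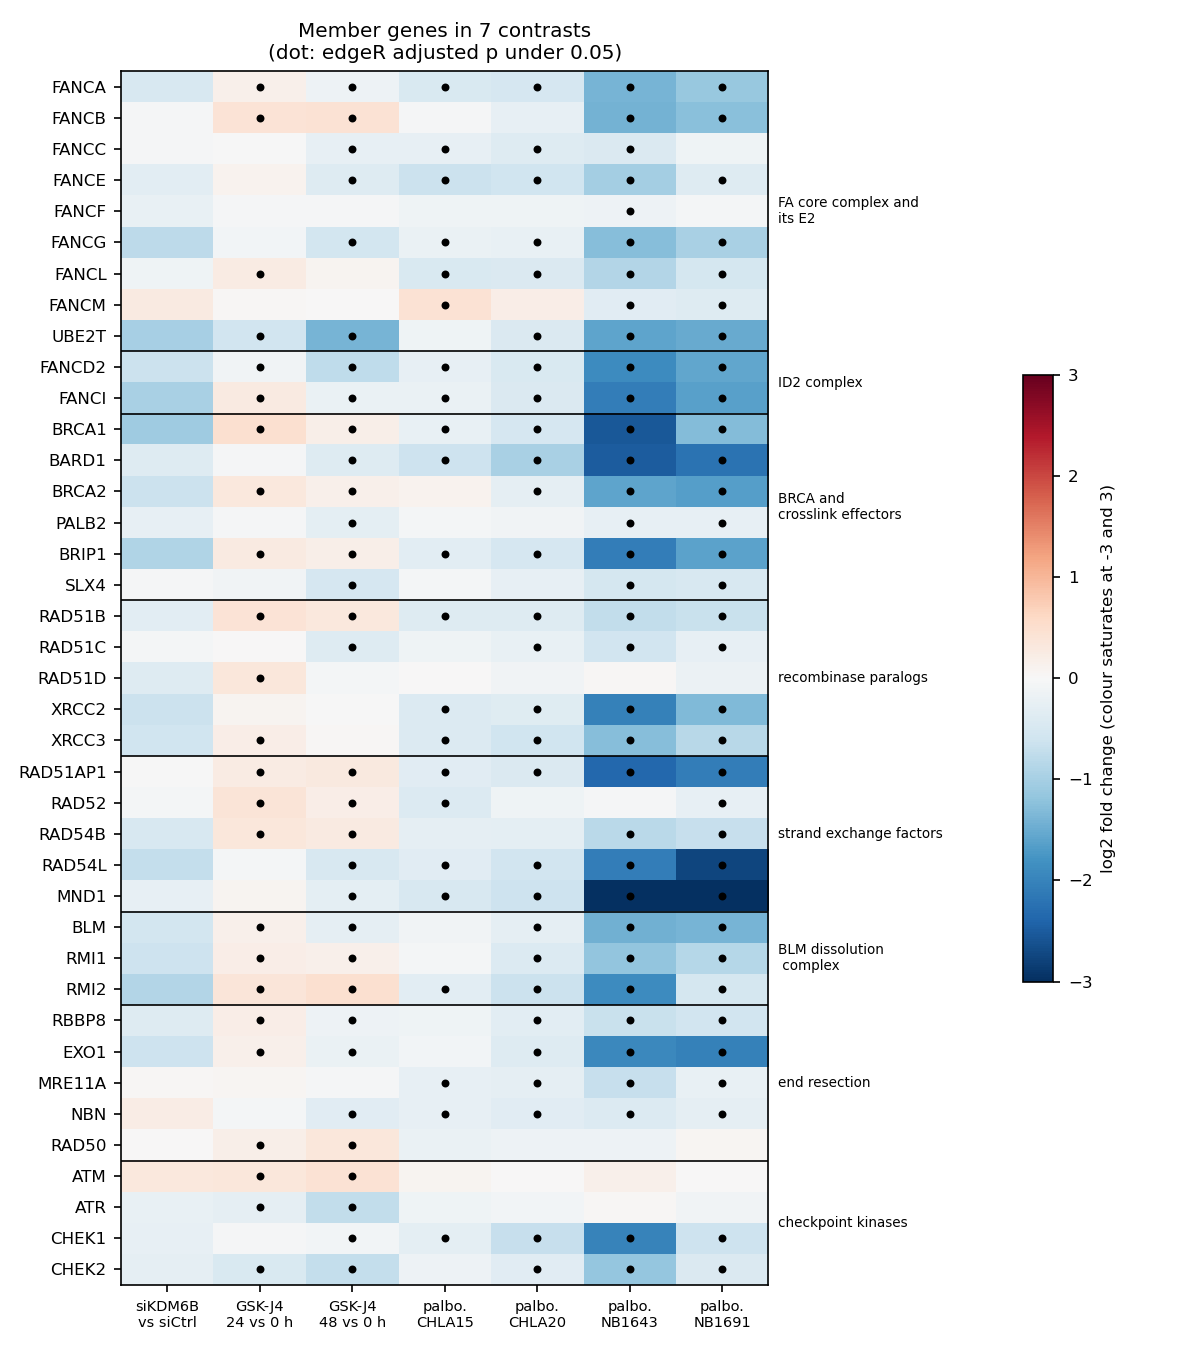
Log2 fold change of each of the 39 genes (vertical axis, ordered by role) in 7 contrasts (horizontal axis), with blue for lower and red for higher and a dot where the edgeR adjusted p was under 0.05. The 2 columns of NB1643 and NB1691 hold the darkest blue, and the siRNA column holds no dot.

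Under palbociclib over 20 of these genes fell in each of the 4 lines, with larger changes in NB1643 and NB1691 than in CHLA15 and CHLA20. In CHLA15, 21 of the 39 fell and 1 rose, beside 15.6% of all tested genes lower and 14.2% higher. CHLA20 had 28 lower and 0 higher, beside 15.9% and 13.7% of all tested genes. In NB1643, 34 fell and 0 rose (19.7% and 20.3% of all genes), and in NB1691 33 fell and 0 rose (15.5% and 17.4%). The median log2 fold change over the 39 was -0.23 in CHLA15, -0.36 in CHLA20, -1.18 in NB1643 and -0.67 in NB1691, while the median of all tested genes lay between -0.0021 and 0.019. Calls were made with the quasi-likelihood test of edgeR at an adjusted p under 0.05. At an unadjusted p under 0.05 only FANCM was higher in CHLA20, and none in NB1643 and NB1691. limma-voom called 1 gene higher in CHLA20, as did edgeR with upper quartile scaling and with library totals. DESeq2 called 0 higher in these 3 lines. A call of a rise in CHLA20 also appeared in edgeR without the first CHLA20 control.

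Proliferation genes fell in the same libraries. The median change of 38 S-phase genes that are not in the list was -0.18, -0.55, -1.89 and -1.25 in CHLA15, CHLA20, NB1643 and NB1691, and that of 54 G2 and M phase genes was -0.33, -0.47, -2.81 and -2.7. Their part in the falls given here was not tested. In bulk RNA, fewer cells in a phase and less RNA per cell cannot be told apart.

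The strand exchange factors held the largest falls of the whole list. MND1 (chr4:154265801-154336270 of GRCh37, plus strand), which works with its partner in meiotic strand invasion, stood at 18.4 and 21.8 CPM in the NB1643 controls and 2.18 and 1.82 CPM under palbociclib (9.91-fold lower, log2 fold change -3.31 ± 0.11 SE, adjusted p = 2.96e-14). In NB1691 it went from 5.87 and 5.65 to 0.348 and 0.422 CPM (15-fold lower, log2 fold change -3.91 ± 0.17 SE, adjusted p = 2.08e-12). Treated and control libraries were far apart in both lines, although the NB1691 values rest on few counts. In CHLA15 MND1 fell from 11.4 and 12.8 to 8.75 and 8.44 CPM (log2 fold change -0.49 ± 0.094 SE, adjusted p = 5.8e-04), and in CHLA20 from 13.7 and 13.3 to 8.52 and 9.05 CPM (log2 fold change -0.62 ± 0.094 SE, adjusted p = 4.54e-05). An annotated gene on the same strand shares 55.5% of the MND1 exon bases, so its counts are uncertain. RAD54L, a translocase that remodels the recombinase filament, fell from 15.7 and 15.5 to 2.65 and 1.91 CPM in NB1691 (6.76-fold, log2 fold change -2.76 ± 0.11 SE, adjusted p = 3.23e-13) and from 38.1 and 36 to 9.37 and 8.18 CPM in NB1643 (log2 fold change -2.07 ± 0.085 SE, adjusted p = 4.64e-13). Its log2 change in CHLA20 was -0.56 (adjusted p = 1.26e-05), from 43.4 and 44.2 to 30.3 and 29 CPM. RAD51AP1, which stimulates strand invasion, fell from 40.9 and 52.7 to 8.71 and 9.59 CPM in NB1643 (log2 fold change -2.35 ± 0.097 SE, adjusted p = 5.31e-13) and from 26.5 and 24.9 to 6.40 and 5.84 CPM in NB1691 (log2 fold change -2.06 ± 0.10 SE, adjusted p = 1.58e-11). RAD52, an annealing protein, had its largest fall in CHLA15 (13.2 and 12.5 to 9.15 and 10.3 CPM, log2 fold change -0.41 ± 0.086 SE, adjusted p = 0.00128) and no call in NB1643 (-0.039).

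The BRCA group fell in full in NB1643 and NB1691, where 6 of 6 were called in each. BRCA1 (chr17:41196312-41322262 of GRCh37, minus strand), a ubiquitin ligase subunit that promotes resection, stood at 77.9 and 71.6 CPM in NB1643 controls and at 12 and 13.6 CPM with palbociclib (5.86-fold lower, log2 fold change -2.55 ± 0.072 SE, adjusted p = 1.9e-15). The same gene went from 48.9 and 50.8 to 19.8 and 20.5 CPM in NB1691, a smaller fall from a lower start. Its partner BARD1 was the one gene of the group among the 8 largest changes in each line. BARD1 fell from 15.6 and 16.3 to 2.98 and 2.62 CPM in NB1643 (log2 fold change -2.5 ± 0.094 SE, adjusted p = 1.22e-13) and from 10.4 and 11 to 2.37 and 2.21 CPM in NB1691 (log2 fold change -2.22 ± 0.099 SE, adjusted p = 2.83e-12). In CHLA20 it fell from 17.9 and 18.6 to 9.94 and 8.75 CPM (log2 fold change -0.96 ± 0.079 SE, adjusted p = 3.3e-08) and in CHLA15 from 18 and 17.4 to 11.2 and 11.9 CPM (log2 fold change -0.62 ± 0.077 SE, adjusted p = 5.96e-06). No treated library reached a control library of its line. BRIP1, the helicase partner of BRCA1, fell from 106 and 112 to 24.4 and 27.5 CPM in NB1643 (log2 fold change -2.07 ± 0.066 SE, adjusted p = 9.44e-15) and from 38 and 40.7 to 12.9 and 13.2 CPM in NB1691 (log2 fold change -1.59 ± 0.070 SE, adjusted p = 1.96e-12). BRCA2, the recombinase loader, fell from 10.8 and 11.1 to 3.50 and 3.43 CPM in NB1691 (log2 fold change -1.66 ± 0.13 SE, adjusted p = 1.22e-08). PALB2, which bridges BRCA1 and BRCA2, moved least of the group, with log2 changes of -0.25 in NB1643 and -0.25 in NB1691.

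In the Fanconi pathway proper, the pair of ubiquitin acceptors had median log2 changes of -1.98 in NB1643 and -1.59 in NB1691, and fell in each of the 4 lines. FANCI was at 152 and 155 CPM in the NB1643 controls and 36 and 36.9 CPM with palbociclib (log2 fold change -2.07 ± 0.056 SE, adjusted p = 9.47e-16), and at 68 and 70.5 against 23.7 and 21.1 CPM in NB1691 (log2 fold change -1.62 ± 0.057 SE, adjusted p = 7.04e-14). FANCD2, whose counts are uncertain because of pseudogene copies, had log2 changes of -1.9 and -1.56 there. Among the 9 core complex genes with their E2, 9 fell in NB1643 and 7 in NB1691, with median log2 changes of -1.02 and -0.53. UBE2T, the E2, went from 92.1 and 108 to 33.1 and 33.7 CPM in NB1643 and from 31.3 and 31.1 to 11.2 and 10.8 CPM in NB1691. FANCE, which joins the core complex to FANCD2, led the falls in CHLA15, from 12.1 and 11.6 to 8.45 and 6.87 CPM (log2 fold change -0.63 ± 0.10 SE, adjusted p = 1.1e-04). FANCL, the ubiquitin ligase of the complex, fell there from 46.3 and 43.5 to 33 and 32.2 CPM (log2 fold change -0.46 ± 0.065 SE, adjusted p = 2.5e-05). FANCA fell from 54.9 and 58.7 to 40.9 and 42.3 CPM in CHLA15 (log2 fold change -0.45 ± 0.064 SE, adjusted p = 3.03e-05) and from 56.8 and 53.1 to 38.8 and 39 CPM in CHLA20 (log2 fold change -0.50 ± 0.065 SE, adjusted p = 8.07e-06). These changes were small, but both treated libraries lay below both controls in each case. Genes on the opposite strand share 19.6% of the exon bases of FANCA and 19.9% of those of RAD54L. FANCM, the translocase that anchors the complex on DNA, was the exception in direction. It rose in CHLA15 from 14.4 and 14.7 to 18.5 and 20.8 CPM (log2 fold change 0.43 ± 0.078 SE, adjusted p = 2.89e-04), had a log2 change of 0.21 in CHLA20 (adjusted p = 0.0505) and fell in NB1643 (-0.35) and NB1691 (-0.38).

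Of the 5 recombinase paralogs, XRCC2 and XRCC3 had the largest changes in NB1643. XRCC2 fell from 71.2 and 71.2 to 18.3 and 16.8 CPM in NB1643 (log2 fold change -2.02 ± 0.078 SE, adjusted p = 1.77e-13) and from 40.4 and 42.7 to 29.8 and 32.9 CPM in CHLA15 (log2 fold change -0.41 ± 0.074 SE, adjusted p = 3.48e-04). XRCC3 fell from 35.2 and 39.1 to 24 and 25 CPM in CHLA20 (log2 fold change -0.60 ± 0.069 SE, adjusted p = 2.28e-06). A gene on the opposite strand shares 76.7% of the XRCC3 exon bases and the strand setting of the counting is not given in the sources used here, so its reads cannot be told apart from that gene's. Of the BLM complex, which dissolves joint molecules, 3 of 3 fell in CHLA20, NB1643 and NB1691. RMI2, its small subunit, fell from 41 and 40.5 to 25.6 and 26.2 CPM in CHLA20 (log2 fold change -0.65 ± 0.066 SE, adjusted p = 4.48e-07). Among the resection genes, EXO1, a nuclease, fell from 23.2 and 23.1 to 6.22 and 5.06 CPM in NB1691 (log2 fold change -2.03 ± 0.084 SE, adjusted p = 8.31e-13), whereas NBN and MRE11A of the break-sensing complex had log2 changes of -0.42 and -0.70 in NB1643 and smaller falls in the other lines. Of the kinases, the effector CHEK1 fell in 4 lines and CHEK2 in 3, and the upstream ATM and ATR passed the test in no line. CHEK1 went from 79.5 and 80.7 to 49.1 and 50.7 CPM in CHLA20 (log2 fold change -0.68 ± 0.055 SE, adjusted p = 3e-08) and from 83.9 and 90.4 to 21.8 and 21.7 CPM in NB1643. ATM, ATR, RAD50 and RAD51D were called in none of the 4 lines by edgeR, and of these 16 values only RAD51D in NB1691 had an unadjusted p under 0.05. RAD50 lay between 3.77 and 5.17 CPM in the palbociclib files and 76.9% of its exon bases are shared with a gene annotated on the same strand, so that its counts and the missing call are uncertain. The 95% intervals for ATM ran from -0.20 to 0.36 over the 4 lines and those for ATR from -0.25 to 0.16.

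**Figure D2:**
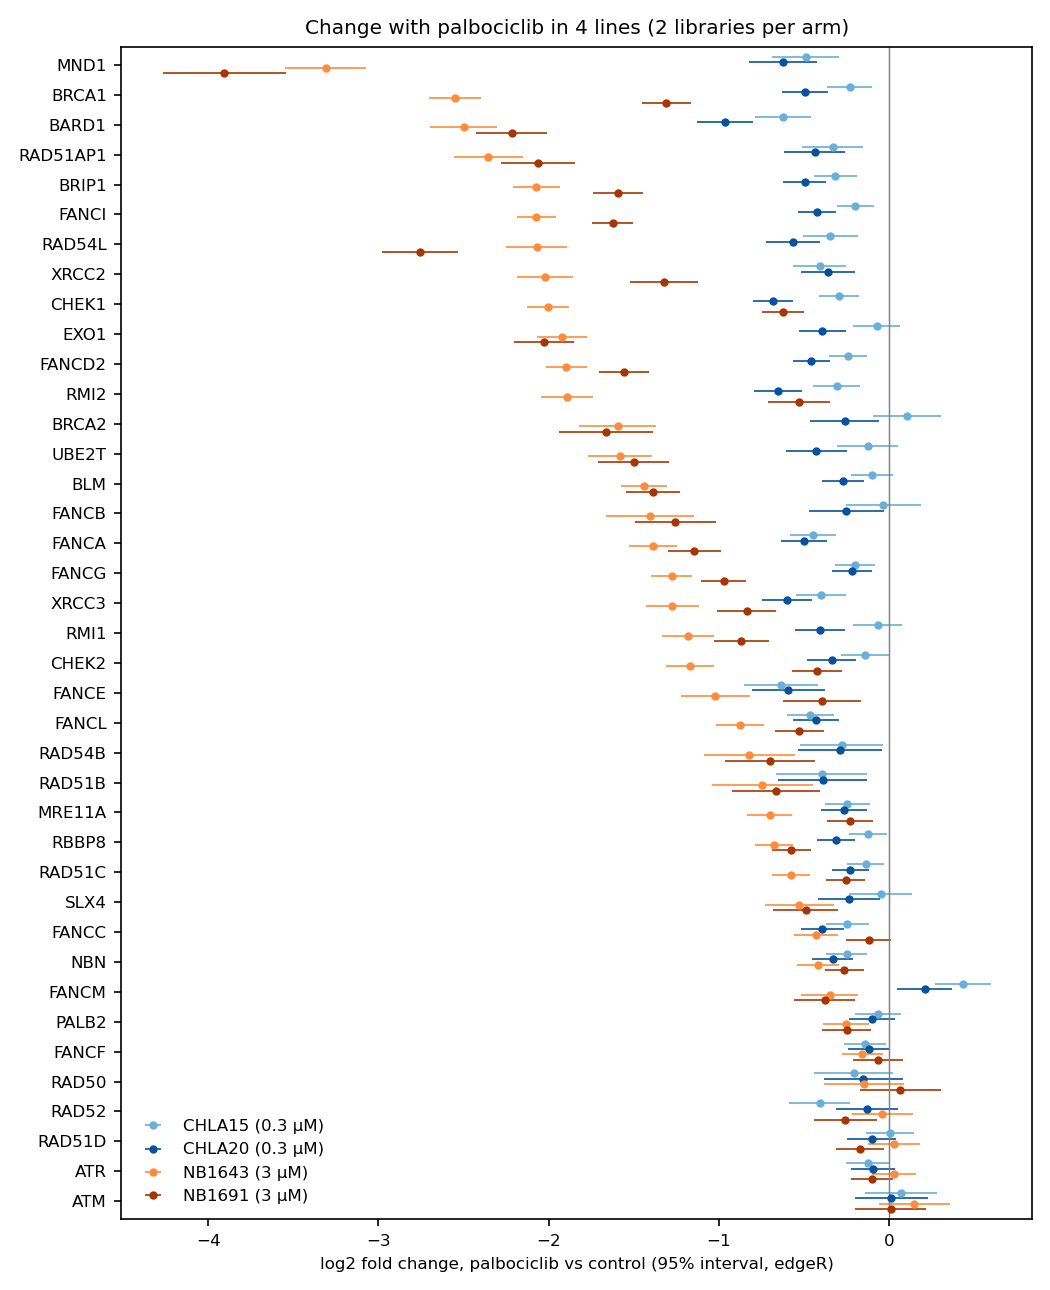
Log2 fold change under palbociclib with its 95% interval from edgeR (horizontal axis) for each of the 39 genes (vertical axis, ordered by the change in NB1643) in 4 lines, 2 libraries per arm. From MND1 at the top to RMI1 both 3 µM lines mostly lie left of both 300 nM lines, with RMI2 and CHEK1 in NB1691 as exceptions, and ATM and ATR lie near 0 in each line.

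Of the 39 genes, 19 fell in all 4 lines (BARD1, BRCA1, BRIP1, CHEK1, FANCA, FANCD2, FANCE, FANCG, FANCI, FANCL, MND1, MRE11A, NBN, RAD51AP1, RAD51B, RAD54L, RMI2, XRCC2 and XRCC3), 9 in 3 lines, 6 in 2 lines and FANCF in 1. Of all tested genes 3.28% fell in all 4 lines. Without NB1691, whose markers stood apart, 20 fell in each of the other 3 lines, FANCC being the addition, beside 6.23% of all tested genes. A test of equal change in the 4 lines was called for 30 of the 39 and for 38% of all tested genes, with 29 of the 39 and 23.2% of all genes called when NB1691 was left out. For 27 of the 39, and for 20.8% of all tested genes, both 3 µM lines had changes below those of both 300 nM lines. Comparisons within 1 dose were added after the data had been seen. Between CHLA15 and CHLA20, 1 gene of 39 differed in its change (2.02% of all genes), and that was CHEK1, which fell further in CHLA20 (difference -0.39 on the log2 scale, 95% interval -0.55 to -0.22, adjusted p = 0.0151). The other 38 were not called, and the median difference over the 39 was -0.15. At an unadjusted p under 0.05 (edgeR) stood 12 of the 39, so a missing call does not show an equal change. The 95% interval was -0.54 to -0.15 for RMI2 and, on the other side of 0, 0.022 to 0.54 for RAD52.

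Between NB1643 and NB1691, both at 3 µM, the change differed for 17 genes of 39, beside 22% of all genes. Of these 17, 16 fell less in NB1691. CHEK1 fell from 36.9 and 35.8 to 24.4 and 22.8 CPM there, and the change in NB1691 minus that in NB1643 was 1.38 on the log2 scale (95% interval 1.21 to 1.55, adjusted p = 1.63e-09). RMI2 was at 6.80 and 7.74 CPM in the NB1691 controls and 4.92 and 5.18 CPM treated, against 35.3 and 35.8 CPM control and 9.60 and 9.57 CPM treated in NB1643 (difference 1.36 on the log2 scale, 95% interval 1.12 to 1.6, adjusted p = 9.38e-08). For BRCA1 the difference was 1.24 on the log2 scale (95% interval 1.04 to 1.45, adjusted p = 5.5e-08). Control levels were lower in NB1691 than in NB1643 for these 3 genes, and also for RAD54L, MND1, EXO1 and BRCA2. RAD54L was the 1 gene that fell further in NB1691 (difference -0.69 on the log2 scale, 95% interval -0.98 to -0.39, adjusted p = 0.00164). The difference for MND1 was -0.60 on the log2 scale (95% interval -1.12 to -0.082, adjusted p = 0.0939) and was not called. It was -0.10 on the log2 scale (95% interval -0.33 to 0.12, adjusted p = 0.561) for EXO1 and -0.070 on the log2 scale (95% interval -0.43 to 0.29, adjusted p = 0.856) for BRCA2, also without a call, and these intervals leave room for differences in either direction. These genes of the within-dose comparisons were chosen after their values were seen.

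In the control libraries of the same 4 lines, NB1691 held the lowest level for most of the pathway. The level differed among the lines for 36 of the 39 genes, the exceptions being RAD52, RAD54B and RAD50, and for 91.2% of all genes. NB1691 had the lowest mean for 30 genes, and for 29 of these its libraries lay below all other control libraries. Over all tested genes these shares were 34.3% and 27.8%. The TMM factors of the control libraries were 0.81 to 0.82 in NB1691 and 1.07 to 1.11 in the other lines. A smaller factor raises the CPM, and the order of the lines was not read under other scalings. The ratio of the highest to the lowest line mean had a median of 2.38 and ranged from 1.17 to 5.99. XRCC2 stood at 12.1 and 11.7 CPM in NB1691, 39.5 and 36.1 in CHLA20, 40.4 and 42.7 in CHLA15 and 71.2 and 71.2 in NB1643. EXO1 stood at 23.2 and 23.1 CPM in NB1691, 65.7 and 63.8 in CHLA15, 77.1 and 81.7 in CHLA20 and 111 and 117 in NB1643. RMI2, at 6.80 and 7.74 CPM in NB1691, was at 32.4 and 32.1 in CHLA15, 35.3 and 35.8 in NB1643 and 41 and 40.5 in CHLA20. In each of these examples NB1691 is separated from the rest, and the order among the other 3 lines differs from gene to gene. FANCB, RAD51B, NBN, ATM and ATR were highest in NB1691 instead, without overlap, as were 37.1% of all tested genes. NBN was at 100.3 and 104 CPM there, against 41.8 and 41.2 in CHLA15, 44.3 and 48.2 in CHLA20 and 47.8 and 49.1 in NB1643. CHLA20 held the highest mean for 19 genes, 11 of them without overlap, beside 13.8% and 6.43% of all tested genes. NB1643 held it for 12, 10 of them without overlap, beside 28.2% and 20.3%. NB1643 led for FANCE, FANCF, FANCG, FANCM, PALB2, XRCC2, MND1, EXO1, MRE11A, RAD50, CHEK1 and CHEK2. The libraries of CHLA15 and CHLA20 overlapped for 12 of the 39 genes and for 49.3% of all tested genes, and their difference was not tested. NB1691 thus differed from the other lines both in the marker sums given earlier and in these levels, and the part of the markers in the levels was not tested.

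**Figure D3:**
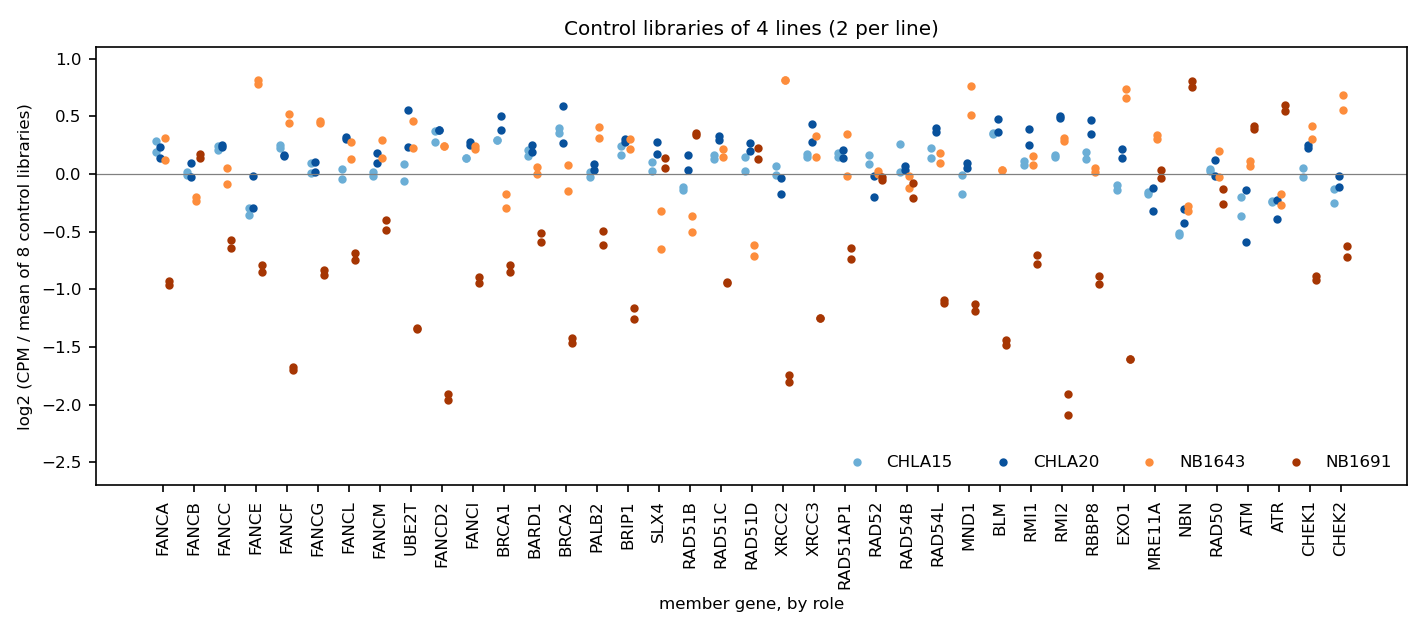
Level of each of the 39 genes (horizontal axis, by role) in the 8 control libraries, as log2 of CPM over the mean of the 8 (vertical axis), 1 point per library. The NB1691 points lie at the bottom for 30 genes and at the top for FANCB, RAD51B, NBN, ATM and ATR.

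GSK-J4 in BE2C gave more rises than falls at 24 h and mostly falls from 24 to 48 h. At 24 h, 20 of the 39 rose and 4 fell against 0 h, beside 27.3% of all tested genes higher and 28% lower. At 48 h, 12 rose and 20 fell against the same 0 h libraries, beside 37.1% higher and 34.4% lower. With upper quartile scaling the 48 h split was 17 higher and 17 lower, with the median of all genes moved from 0.055 to 0.16. Between 24 and 48 h, 28 fell and 2 rose (28% and 25.9% of all genes). The median log2 change over the 39 was 0.14 at 24 h, -0.085 at 48 h and -0.26 from 24 to 48 h. The 24 h and 48 h contrasts share their 0 h libraries. The 38 S-phase genes had medians of -0.03, -0.31 and -0.22 in these 3 contrasts and the 54 G2 and M phase genes -0.51, -0.93 and -0.50, and their part in the result was not tested. The sympathoadrenal sum was 3899 to 3964 CPM at 0 h, 4010 to 4022 at 24 h and 3302 to 3321 at 48 h. The mesenchymal sum was 289 to 302 CPM, then 375 to 385 and 522 to 526 CPM, and the epithelial sum was 1.60 to 2.03 CPM at 0 h and 4.82 to 4.88 at 48 h. The part of these markers was not tested either. KDM6B rose from 7.42 and 8.16 CPM at 0 h to 16.1 and 16.6 at 24 h and 23.7 and 22.8 at 48 h, and MYCN went from 3004 and 3027 CPM at 0 h to 1669 and 1717 at 24 h and 1467 and 1433 at 48 h.

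Within the Fanconi pathway UBE2T fell most. UBE2T (chr1:202300672-202311112 of GRCh37, minus strand) stood at 128 and 128 CPM at 0 h, 84.4 and 86.6 at 24 h and 48.4 and 48.3 at 48 h (2.65-fold lower at 48 h, log2 fold change -1.41 ± 0.036 SE, adjusted p = 5.16e-34). Its change at 24 h was -0.58 (adjusted p = 1.8e-19), and from 24 to 48 h -0.82 (adjusted p = 5.76e-24). The libraries of the 3 times did not overlap. FANCD2 stood at 67 and 67.5 CPM at 0 h, 63.4 and 62.6 at 24 h and 40.3 and 39.2 at 48 h (log2 fold change -0.76 ± 0.041 SE, adjusted p = 2.19e-21 between 48 and 0 h). Its small fall at 24 h (-0.094, adjusted p = 0.0402) lost its call in 9 alternative settings, among them leaving out any 1 of the 4 libraries compared, at adjusted p from 0.0721 to 0.334 and log2 changes from -0.11 to -0.047. FANCI rose first, from 248 and 250.5 to 295 and 302 CPM, and was at 218 and 219 CPM at 48 h, a log2 change of -0.45 from 24 h (adjusted p = 2.62e-18). FANCG, a core complex scaffold, was at 43.3 and 42.5 CPM at 0 h, 39.9 and 40.6 at 24 h and 28 and 30.7 at 48 h, with a log2 change of -0.55 between 48 and 0 h (adjusted p = 7.65e-14). FANCE fell from 17.9 and 16.7 CPM at 24 h to 12 and 12.6 at 48 h, a log2 change of -0.49. FANCB, another core subunit, rose at both times, from 16.1 and 16 CPM at 0 h to 22.8 and 20.3 at 24 h and 21.8 and 21.8 at 48 h (log2 fold change 0.44 ± 0.064 SE, adjusted p = 6.22e-08 between 48 and 0 h).

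The kinases split in this line as well, though not along the same border as under palbociclib. ATM rose from 289 and 288 CPM to 364 and 369 at 24 h (log2 fold change 0.34 ± 0.028 SE, adjusted p = 1.23e-14) and 387 and 388 at 48 h (log2 fold change 0.42 ± 0.028 SE, adjusted p = 2.72e-18). ATR, the kinase of stalled forks, fell from 141 and 139.6 CPM at 0 h to 118 and 114 at 24 h and 83.5 and 83.5 at 48 h (log2 fold change -0.75 ± 0.033 SE, adjusted p = 1.52e-24 between 48 and 0 h). The 2 upstream kinases thus moved apart in the same 6 libraries, with no overlap between 0 h and 48 h for either. CHEK2, which ATM phosphorylates and which has pseudogene copies, fell from 39.2 and 38.2 CPM at 0 h to 29.2 and 27.3 at 24 h and 23.9 and 22.9 at 48 h (log2 fold change -0.73 ± 0.052 SE, adjusted p = 6.34e-17 between 48 and 0 h). CHEK1 stood at 141.9 and 141 CPM at 0 h, 141 and 136 at 24 h and 134 and 132 at 48 h, a log2 change of -0.085 at 48 h. The call of ATM between 24 and 48 h (0.081, adjusted p = 0.0108) was lost with DESeq2 (adjusted p = 0.0533), with no filter beyond 1 count (0.0966), and without the first 24 h library (0.152) or either 48 h library (0.0698 and 0.0787).

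In each of the 5 recombination groups 3 genes rose at 24 h, and BRCA1 had the largest change of them. BRCA1 stood at 157 and 162 CPM at 0 h, 221 and 222 at 24 h (log2 fold change 0.47 ± 0.031 SE, adjusted p = 5.97e-18) and 178 and 181 at 48 h. RMI2 rose from 19 and 19.4 CPM at 0 h to 26.1 and 23.7 at 24 h and 26.4 and 27 at 48 h (log2 fold change 0.47 ± 0.059 SE, adjusted p = 1.1e-09 between 48 and 0 h). RAD52 rose from 12.4 and 12.2 to 15.9 and 16.6 CPM at 24 h (log2 fold change 0.40 ± 0.072 SE, adjusted p = 6.32e-06), and RAD51B, at 3.64 and 3.01 CPM one of the genes with few counts, to 4.53 and 4.36 CPM (log2 fold change 0.42 ± 0.14 SE, adjusted p = 0.00818). These rises at 24 h stood apart from the 0 h libraries without overlap. DESeq2 did not call RAD51B at 24 h (log2 fold change 0.41, adjusted p = 0.0699). Without the second 0 h library its change at 24 h was 0.29, and the call was lost as well. At 48 h RAD52, RAD51B and RAD54B had log2 changes of 0.21, 0.33 and 0.28, and DESeq2 called none of the 3 (adjusted p = 0.102, 0.155 and 0.0659). Without the second 0 h library RAD52 was at 0.19 (adjusted p = 0.0615) and RAD51B at 0.19 (0.303), without the first 48 h library RAD52 was at 0.19 (0.057) and RAD54B at 0.20 (0.0921), and without the second 48 h library RAD51B was at 0.23 (0.1995). These 3 rises at 48 h thus depend on single libraries, and 66.0% of the RAD54B exon bases lie in another gene on the same strand. RAD50, of the break-sensing complex, rose from 85.6 and 90.8 CPM at 0 h to 101 and 98.8 at 24 h and 114 and 111 at 48 h (log2 fold change 0.35 ± 0.035 SE, adjusted p = 3.82e-12 between 48 and 0 h). Its counts are uncertain here too, because 76.9% of its exon bases are shared with a gene annotated on the same strand. RAD51AP1 rose from 50.04 and 53.1 CPM at 0 h to 65 and 60.4 at 48 h (log2 fold change 0.28 ± 0.043 SE, adjusted p = 1.35e-07). SLX4, the nuclease scaffold, fell from 18.3 and 20.1 to 13.7 and 13.6 CPM at 48 h (log2 fold change -0.50 ± 0.069 SE, adjusted p = 1.75e-08), and RAD54L from 19 and 17.9 to 12.7 and 13.9 CPM (log2 fold change -0.48 ± 0.068 SE, adjusted p = 3.11e-08). BLM, the dissolution helicase, went from 104 and 105 CPM at 24 h to 79.6 and 77.1 at 48 h (-0.41, adjusted p = 1.47e-14).

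**Figure D4:**
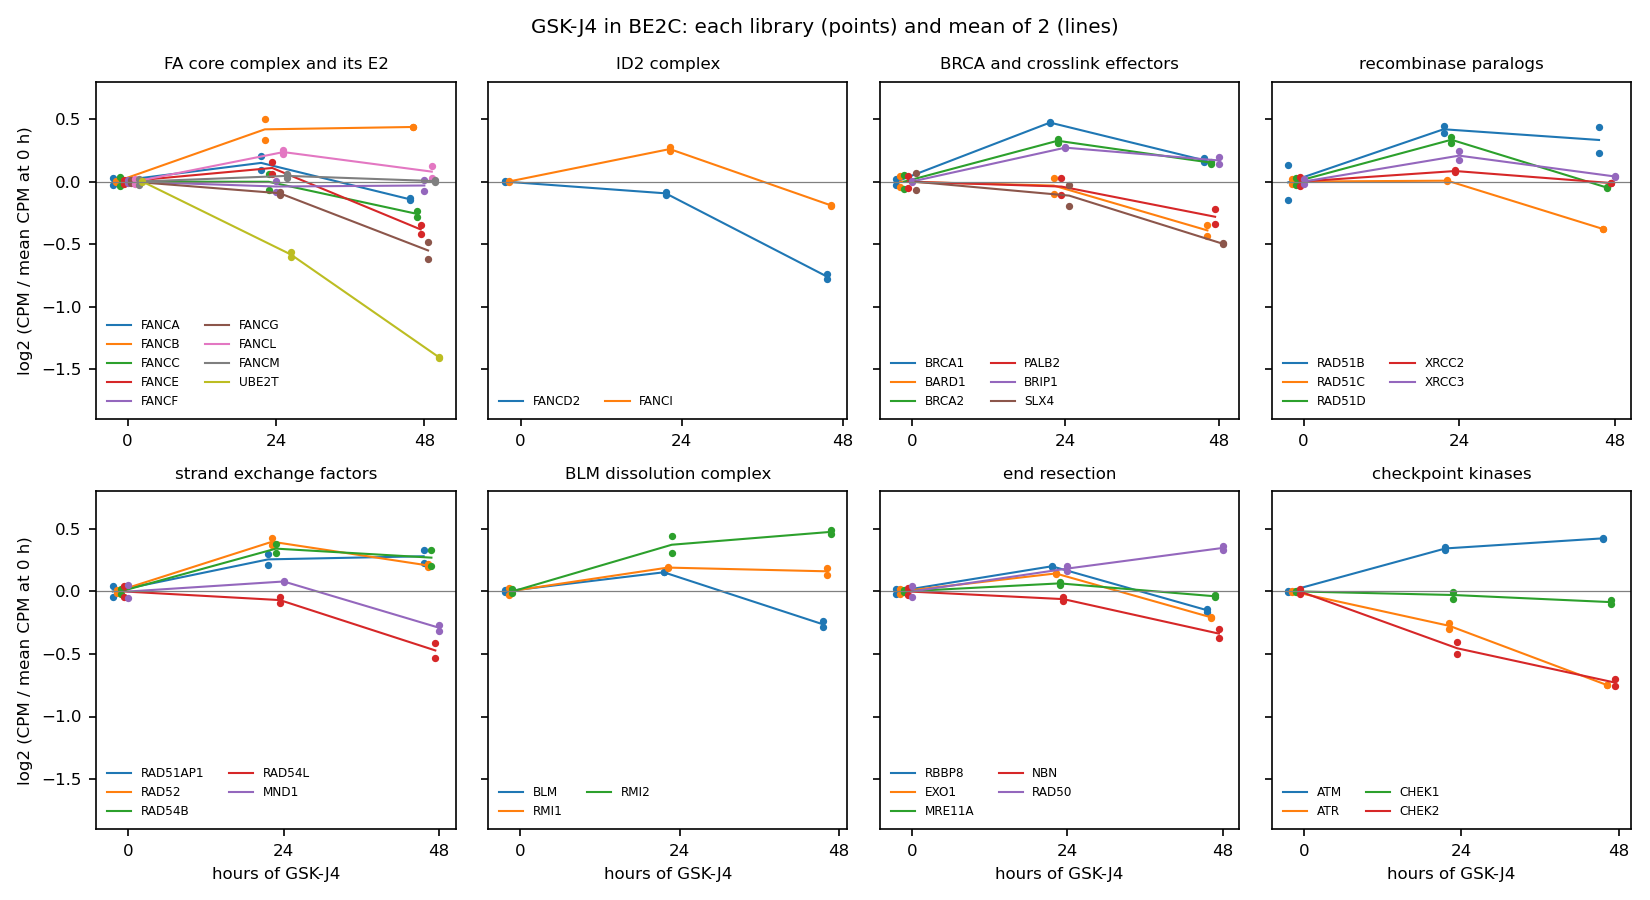
Log2 of CPM over the mean CPM at 0 h (vertical axis) against hours of GSK-J4 (horizontal axis) for the 39 genes in 8 panels by role, with a point per library and a line through the mean of 2. UBE2T ends lowest, FANCD2, ATR and CHEK2 form the next group, and FANCB, ATM and RMI2 end above their 0 h level.

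The siRNA comparison called none of the 39 genes. Its 3 siRNAs were taken as 1 arm, so the SE and p-values given here include differences between siRNAs. A missing call in it does not show a missing change. In edgeR 0 of the 39 were lower and 0 higher, and 0% of all tested genes were lower and 0% higher, with 5 of the 39 (BRCA1, UBE2T, FANCI, BRIP1 and BLM) and 1615 of 17472 genes at an unadjusted p under 0.05. DESeq2 called 1 of the 39, FANCI, and 157 of all genes, and limma-voom called 0 of either. The median log2 change was -0.33 over the 39 and 0.044 over all genes. For 17 of the 39 all siKDM6B libraries lay below both siCtrl libraries, and for 1, NBN, above, beside 16.8% and 16.3% of all tested genes. BRCA1 stood at 153 and 148 CPM with siCtrl and at 71.8, 95.1 and 47.9 with N1, N2 and N33 (log2 fold change -1.07 ± 0.31 SE, adjusted p = 0.52). FANCI stood at 207 and 199.6 CPM with siCtrl against 113, 100.1 and 97.2 (log2 fold change -0.97 ± 0.20 SE, adjusted p = 0.52), the 3 siRNAs lying close together. UBE2T was at 130.2 and 117 CPM against 75.7, 75.8 and 34.9 (log2 fold change -0.99 ± 0.36 SE, adjusted p = 0.523), and BRIP1 at 87.4 and 79.4 against 44.1, 62.8 and 26.1 CPM (log2 fold change -0.91 ± 0.37 SE, adjusted p = 0.534). For UBE2T and BRIP1 the N33 library was well below N1 and N2. RMI2, FANCG, RAD54L and BRCA2 had log2 changes of -0.88, -0.79, -0.72 and -0.64, with adjusted p of 0.555, 0.555, 0.575 and 0.569.

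Library by library, N33 was below both siCtrl libraries for 33 of the 39 genes and above both for 6, with a median log2 difference of -0.69, beside 45.4% and 45.7% of all tested genes. N1 had 28 below and 10 above (median -0.31), beside 44.8% and 44.8%, and N2 25 below and 11 above (median -0.21), beside 43.9% and 44.1%. Without N33 none of the 39 was called by edgeR, and the log2 changes were -0.85 for BRCA1, -0.93 for FANCI, -0.70 for UBE2T and -0.64 for BRIP1, with adjusted p from 0.182 to 0.265. The 38 S-phase genes and 54 G2 and M phase genes had medians of -0.82 and -0.77 in the siRNA contrast, and the sympathoadrenal and MYCN levels of N33 were low. Their part in the result was not tested.

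**Figure D5:**
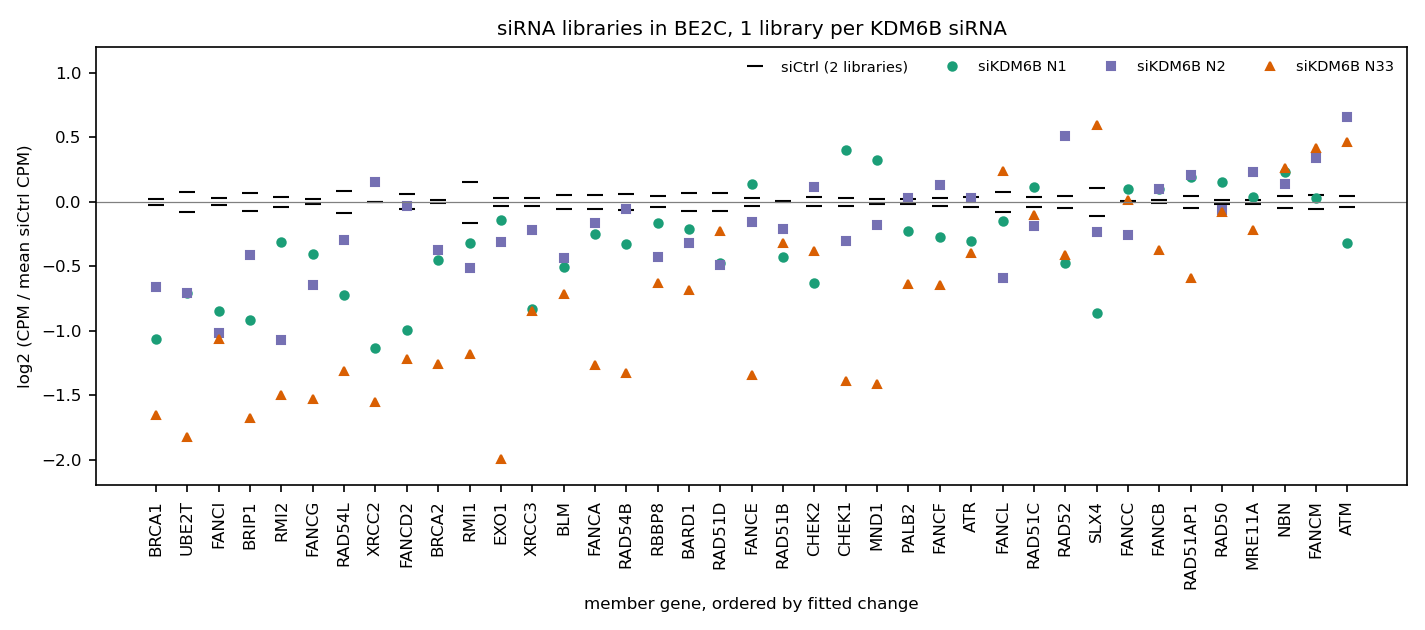
Log2 of CPM over the mean siCtrl CPM (vertical axis) for each of the 39 genes (horizontal axis, ordered by fitted change) in 2 siCtrl libraries (bars) and in 1 library for each KDM6B siRNA (symbols). N33 lies lowest for most genes, while the 3 symbols of FANCI lie close together.

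The rest of the repair genes were read from lists of their own. Of 49 further Fanconi and recombination genes tested, 11 fell and 2 rose in CHLA15, 16 and 2 in CHLA20, 30 and 5 in NB1643 and 23 and 2 in NB1691, with medians between -0.37 and -0.10. Of 18 genes of non-homologous end joining, 5 fell and 2 rose in CHLA15, 5 and 1 in CHLA20, 9 and 2 in NB1643 and 10 and 0 in NB1691. Of 32 genes of nucleotide and base excision repair, between 11 and 15 fell per line and between 2 and 5 rose. Of 7 mismatch repair genes, 4 fell and 2 rose in NB1643 and 2 fell in each other line. With GSK-J4 at 48 h, 24 of the 49 further genes fell and 12 rose, 11 and 5 of the end joining genes, 20 and 7 of 31 excision repair genes, and 5 and 0 of the mismatch repair genes. Over all tested genes, 15.5% to 19.7% fell and 13.7% to 20.3% rose per line under palbociclib. With GSK-J4 at 48 h these shares were 34.4% and 37.1%. The difference between these lists and the 39 genes was not tested. With siKDM6B, 0 genes of these 4 lists were called by edgeR, as were 0% of all tested genes.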

How the data were processed

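RNA labelled as from 5 cell lines was sequenced, and the authors deposited raw read counts per gene. Per the submitters' processing notes and the study's methods, reads were demultiplexed with CASAVA, aligned with STAR 2.5.3a to GRCh37 and counted with HTSeq. The strand setting is not given in the sources used here, and the annotation named by the methods is a mouse release although the gene symbols are human. The 39 genes and all other gene lists were chosen with earlier results of these data known. The 22 BE2C files were summed in pairs to 11 libraries: files of a pair differed by a chi-square per degree of freedom of 1.48 to 1.65, and libraries of 1 group by 1.926 to 4.041. The titles do not say whether the files of a KDM6B siRNA are 1 library or separate replicates, and they were taken as 1 library. The 16 palbociclib libraries were fitted apart, because their files list other genes.

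From the counts, edgeR 4.0.16 was run in R 4.3.3 (TMM, filterByExpr, quasi-likelihood F test, Benjamini-Hochberg adjustment over all tested genes, threshold 0.05) on 17472, 17734 and 22133 genes in the siRNA, GSK-J4 and palbociclib fits. Levels are CPM with TMM library sizes. Per contrast, the text names up to 8 genes with the largest changes among those called without overlap between libraries, and up to 8 called against the majority. Where none is called, it names the 8 largest changes without overlap. Cell cycle lists came from Seurat 5.3.0. Alternatives were DESeq2 1.42.0, limma-voom 3.58.1, other scalings, no filter, each file as a sample, a replicate block, and leaving out each library. Scripts were tested on simulated data. Depth was 41227956 to 50776662 counts per siRNA library, 36186567 to 63433818 per GSK-J4 library and 45457371 to 93011010 per palbociclib library. Promoter sequences are from RefSeq (GRCh38.p14), and 4 genes had none there. Levels of a gene are not compared between the BE2C and palbociclib files.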

Additional observations from a re-analysis of the deposited data

Results flagged for a closer look

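A test of equal change under palbociclib in the 4 lines was passed by 30 of the 39 genes, beside 38% of all tested genes, with the largest adjusted p at 0.0274 (edgeR). The values that follow are the largest minus the smallest log2 change among the 4 lines. The strand exchange genes had 3.42 for MND1, 2.41 for RAD54L, 2.02 for RAD51AP1 and 0.542 for RAD54B. The BRCA group had 2.32 for BRCA1, 1.88 for BARD1, 1.77 for BRCA2, 1.76 for BRIP1 and 0.477 for SLX4. The ubiquitin acceptors had 1.87 for FANCI and 1.66 for FANCD2. The core complex and its E2 had 1.46 for UBE2T, 1.37 for FANCB, 1.08 for FANCG, 0.939 for FANCA, 0.812 for FANCM, 0.625 for FANCE, 0.447 for FANCL and 0.309 for FANCC. The paralogs had 1.66 for XRCC2, 0.871 for XRCC3 and 0.437 for RAD51C. The BLM complex had 1.58 for RMI2, 1.34 for BLM and 1.11 for RMI1. The resection genes had 1.95 for EXO1, 0.555 for RBBP8 and 0.473 for MRE11A, and the kinases 1.71 for CHEK1 and 1.03 for CHEK2. The largest fall was in NB1643 for 25 of the 30 and in NB1691 for 5. FANCM alone of these rose in 1 line (CHLA15) and fell in 2 others. Dose and line cannot be told apart in this test.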

How the results depend on the processing

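Among the counts of genes called, only the siRNA comparison moved by over 1.5 times under the alternatives planned: it gave 0 in the main setting, 1 with DESeq2 and 8 when each file was taken as a sample, and 0 to 0 when 1 library was left out. The test of unequal change among the lines called 30 genes, 1 when only CHLA15 and CHLA20 were compared, 17 when only NB1643 and NB1691 were compared and 29 without NB1691. These 3 settings were chosen after the data had been seen, and fewer lines enter them. Leaving out 1 library gave 21 to 23 genes for GSK-J4 at 24 h, 29 to 31 at 48 h, 26 to 29 between the times, 16 to 21 in CHLA15, 26 to 30 in CHLA20, 33 to 34 in NB1643, 30 to 31 in NB1691, 28 to 31 for unequal change and 35 to 38 for the control libraries. The lone library of an arm was then assumed to vary like the other groups. Of 860 values of named genes under the alternatives, 829 kept direction and side of the threshold, 6 newly passed it, 25 no longer did and 0 reversed. Same-numbered samples shared little of their deviations (correlation from -0.0428 to 0.123), and so few libraries cannot settle whether the replicate numbers pair the samples. With the replicate block 24 genes were called at 24 h, 32 at 48 h, 30 between the times and 23 in CHLA15. Depth limits MND1 in treated NB1691 cells, where its lowest count was 21.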
